A study of Mus musculus with 6 samples.

Results

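Solute carriers are membrane proteins that move amino acids, sugars, ions, metals, nucleosides and vitamins across the plasma membrane and across the membranes of organelles. They were taken here as every probe set whose platform gene symbol begins with Slc or Slco and a family number, leaving out Slc2a1 and Slc6a4. This gave 186 of 12422 probe sets on the array, 185 of them for 152 of 8251 named genes and 1 listed under several symbols, which was given no name. RNA was measured on 6 arrays, 1 per sample, from keratinocytes of the skin of K15-EGFP transgenic mice, in which a keratin 15 promoter drives enhanced green fluorescent protein (EGFP). The 3 EGFP-high samples held cells sorted as high for EGFP, a gate that enriches for the stem cells of the hair follicle bulge. The 3 EGFP-negative samples held cells sorted as negative for EGFP. Both gates also required α6 integrin on the cell surface, so that all 6 samples are of α6 integrin positive cells from mice that carry the transgene. Strain, age and the number of animals were not given in the sources used here. Nothing there tells whether the replicates came from different mice, and the p-values cover only the spread seen among these 6 samples, some of it perhaps technical.

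A transporter's family number groups it by sequence, and families largely share their substrates. Some carriers exchange 1 solute for another, some are coupled to sodium, chloride or protons, and some only let a solute run down its gradient. In skin, zinc uptake, amino acid uptake and the uptake of osmolytes such as taurine are all carried by members of these families. The probe sets were placed by family number into groups by substrate, so that a member with an unusual substrate for its family stays with its family.

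Of the 186 probe sets, 113 for 97 named genes were bright enough to be tested, a mean over all 6 arrays above the 40th percentile of all probe sets, near an intensity of 44.5. Among them 4 were higher and 3 lower in EGFP-high cells, which is 6.19% of the 113 and close to the 5.19% of all 7453 tested probe sets past the same threshold (3.02% higher and 2.17% lower). Slc29a1, Slc39a8, Slc6a6 and Slc35e4 rose, and Slc22a4, Slco3a1 and Slc1a4 fell. Slc22a4 was bright enough to be tested only through its EGFP-negative values, so its place in the count is a description. The threshold was a Benjamini-Hochberg adjusted p of 0.05 in limma, over all tested probe sets. The median log2 difference of the 113, EGFP-high minus EGFP-negative on log2(intensity + 19.3), was 0.09, beside a median of 0.00 over all tested probe sets, and the median size without regard to sign was 0.23, beside 0.21. EGFP-high and EGFP-negative values did not overlap for 29 of the 113 (25.7%), 18 of them above and 11 below, where 22.7% of all tested probe sets did not overlap (11.6% above and 11.1% below). A difference of at least 2-fold was seen for 6 of the 113, where 5.13% of all tested probe sets reached it. With the replicate number of the titles as a block, 11 of the 113 (9.73%) passed, against 10.4% of all tested probe sets, with the same 4 higher (5.13% of all tested) and with 7 lower (5.31% of all tested).

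**Figure D1:**
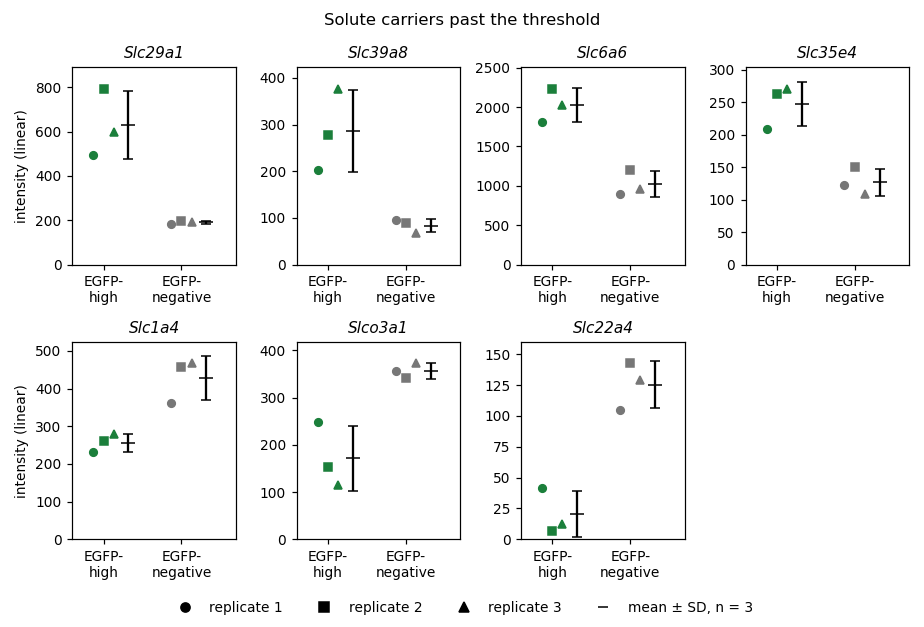
Intensity on a linear scale, starting at 0, for the 7 solute carrier probe sets past the threshold, with 1 point per array (shape gives the replicate number) and the mean ± SD of 3 arrays beside each group. In all 7 panels the EGFP-high and EGFP-negative points do not overlap. In 6 of them, all but Slc1a4, EGFP-high replicate 1 is the EGFP-high array nearest to the EGFP-negative mean.

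The bases just before the transcription start are shown for the 3 genes past the threshold that have a single start in the RefSeq promoter table (build GRCm38.p6), 1 that rose and 2 that fell. The arrays hold no measurement of these windows. Capitals mark each GC box, searched as GGGCGG on both strands, and the TATA box, searched as TATAAA on both strands, was found in 0 of the 3. A GC box was found 0 times in the window of Slc35e4, 3 times in that of Slc1a4 and 2 times in that of Slc22a4. Of 32536 distinct windows of the same length, 33% hold a GC box and 12.3% a TATA box. The windows are given 5′ to 3′ on the strand of the gene, minus for all 3, at chr11:3914665-3914914 for Slc35e4, chr11:20332714-20332963 for Slc1a4 and chr11:54028105-54028354 for Slc22a4.
Slc35e4: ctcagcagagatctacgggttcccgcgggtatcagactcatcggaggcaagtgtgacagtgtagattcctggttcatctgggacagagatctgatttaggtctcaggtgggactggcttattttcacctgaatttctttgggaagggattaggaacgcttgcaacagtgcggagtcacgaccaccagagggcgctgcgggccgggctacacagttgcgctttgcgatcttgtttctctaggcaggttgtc
Slc1a4: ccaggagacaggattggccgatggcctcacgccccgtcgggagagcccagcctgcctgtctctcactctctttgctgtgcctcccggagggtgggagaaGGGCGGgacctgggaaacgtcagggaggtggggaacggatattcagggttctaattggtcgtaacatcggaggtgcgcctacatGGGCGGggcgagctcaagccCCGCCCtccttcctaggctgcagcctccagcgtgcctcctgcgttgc
Slc22a4: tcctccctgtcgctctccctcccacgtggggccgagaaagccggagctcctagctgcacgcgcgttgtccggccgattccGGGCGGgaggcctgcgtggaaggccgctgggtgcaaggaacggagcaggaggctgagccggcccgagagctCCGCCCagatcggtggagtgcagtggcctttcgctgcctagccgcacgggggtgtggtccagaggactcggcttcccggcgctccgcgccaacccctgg

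The arrays were scaled before deposit to a common level, with medians of 69.55 to 76.05. The identity of the samples was checked on named markers. Cd34, a surface marker of bulge cells, read 1339, 1579 and 1450 in EGFP-high cells against 34.4, 29.4 and 40.9 in EGFP-negative cells, and the hemidesmosome collagen Col17a1 read 6527 to 8602 over the 6 arrays. Itga6, which encodes the α6 integrin used in both gates, read 485.1, 405.6 and 585.3 in EGFP-high cells, against 1178.1, 1050 and 1371.4 in EGFP-negative cells (log2 -1.26, adjusted p = 0.00449), so its transcript was present in both groups and lower in EGFP-high cells. Of the 8 tested genes of the basal and bulge keratinocyte list, Cd34, Lgr5, Dkk3 and Postn were higher and Itga6 lower. Cd34 and Lgr5, with EGFP-negative means of 34.9 and 5.13, were bright enough to be tested only through their EGFP-high values. Their place in this count is therefore a description. The probe sets of Krt14 and Krt15, keratins of basal and bulge cells, were at or below the highest of 19 bacterial and yeast control probe sets on every array, so the sort could not be checked through Krt15. EGFP-high replicate 1 was the EGFP-high array nearest to the EGFP-negative mean for 51 of the 113 tested solute carrier probe sets, replicate 2 for 22 and replicate 3 for 40, and it was so for 6 of the 7 past the threshold. The ratio of 3′ to 5′ signal of actin, a sign of RNA quality, was 1.42, 2.03 and 1.51 in EGFP-high replicates 1, 2 and 3 and 1.26, 1.59 and 1.41 in EGFP-negative replicates 1, 2 and 3. A probe set for 18S ribosomal RNA read 206.8, 44.2 and 30.2 in EGFP-high replicates 1, 2 and 3 and 145.8, 18.4 and 32.2 in EGFP-negative replicates 1, 2 and 3, so both arrays of number 1 stood above the other 4. The part of RNA quality and of this ribosomal RNA signal in the differences below was not tested. In sorted samples, fewer cells of a type and less RNA per cell cannot be told apart.

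The nucleoside carrier Slc29a1, which lets adenosine and other nucleosides cross the plasma membrane in either direction, had the largest rise among the tested solute carriers. Its main probe set read 494, 793.5 and 597.5 in EGFP-high cells, against 183.6, 196.9 and 192.6 in EGFP-negative cells. The EGFP-negative arrays lay close together and every EGFP-high array was above them. The log2 difference was 1.60 (SE 0.19, adjusted p = 0.00177), a 3.03-fold rise on the scale used, which held without any single array and was lost without both arrays of number 3 (adjusted p = 0.0694). A second probe set annotated to Slc29a1 read 90.4 ± 44.6 in EGFP-high cells, against 91.2 ± 35.2 in EGFP-negative cells as mean ± SD of 3 arrays each. Its log2 difference was -0.05 (95% interval -0.80 to 0.70), so the probe sets of this gene disagree. That second probe set is of a type marked by the array's design as limited in its probe rules. Among the 13 tested probe sets for vitamins, nucleosides and lipids, Slc29a1 was the 1 past the threshold, and the median log2 difference was 0.14. EGFP-high lay wholly above for 4 (11.6% of all tested probe sets) and wholly below for 1 (11.1% of all tested). The 4 include Slc19a1, read below, which was bright enough to be tested only through its EGFP-high values.

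Slc19a1, the reduced folate carrier, is named after its values were seen. It read 54.8, 166.4 and 161.5 in EGFP-high cells, against 52.5, 30 and 28.7 in EGFP-negative cells. EGFP-high replicate 1 was barely above EGFP-negative replicate 1 and the other 2 EGFP-high arrays were far above. The log2 difference of 1.29 (SE 0.36) had an adjusted p of 0.0899. This probe set was bright enough to be tested only through its EGFP-high values, so its p-values are a description. Leaving out EGFP-high replicate 1 alone lowered the adjusted p to 0.00533, and leaving out replicate 2 of that group raised it to 0.295. The second probe set of Slc19a1 gave a log2 difference of 0.14 (95% interval -0.43 to 0.71). Slc27a3, of the fatty acid transport family, read 215.5, 204.3 and 277.7 in EGFP-high cells, against 441, 420.5 and 321 in EGFP-negative cells. All 3 EGFP-high values were below all 3 EGFP-negative values (log2 -0.71, SE 0.19, adjusted p = 0.0684, and 0.0472 with the replicate block). The choline-carrier-like Slc44a2 read 531 ± 120 in EGFP-high cells, against 372 ± 87.8 in EGFP-negative cells, with overlapping values (log2 0.49, adjusted p = 0.317). Slc44a4 of the same family also overlapped, with an interval of -0.18 to 0.66.

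Of the metal carriers Slc39a8 rose, and none fell in the fit without the replicate block. Slc39a8, which brings zinc and manganese into the cell, read 202.5, 276.7 and 377.1 in EGFP-high cells, against 94.6, 88.7 and 67.4 in EGFP-negative cells. Every EGFP-high array was above every EGFP-negative array (log2 1.54, SE 0.23, adjusted p = 0.00571, a 2.90-fold rise). The call held without any single array and was lost without both arrays of number 2 (adjusted p = 0.0722) or of number 3 (0.104). Slc39a6, a zinc importer of the same family, read 141.6, 99 and 111.8 in EGFP-high cells, against 213.7, 171 and 242.4 in EGFP-negative cells. The groups did not overlap (log2 -0.74, SE 0.19), and the adjusted p was 0.0675, or 0.0233 with the replicate block. Slc31a1, the copper importer, read 217.8, 76.1 and 134.9 in EGFP-high cells, against 345.1, 166.8 and 197 in EGFP-negative cells. The groups overlapped, while EGFP-high was below EGFP-negative in all 3 numbered pairs. Its log2 difference of -0.69 had an adjusted p of 0.375 without the block and 0.0305 with it, and its second probe set had a log2 difference of 0.00 (95% interval -0.61 to 0.60).

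The 3 brightest metal carrier genes, Slc30a3, Slc39a4 and Slc39a1, had overlapping groups. Slc39a1, a zinc importer, read 334 ± 95 in EGFP-high cells, against 365 ± 128 in EGFP-negative cells (n = 3 each; log2 -0.10, 95% interval -0.76 to 0.56). Slc39a4, the zinc importer whose loss causes acrodermatitis in humans, read 818 ± 276 in EGFP-high cells, against 703 ± 334 in EGFP-negative cells (log2 0.28, interval -0.52 to 1.07). That probe set is of the same limited type as the second one of Slc29a1. The other tested probe set of Slc39a4 read 71.5 ± 22.9 in EGFP-high cells, against 52.5 ± 32.7 in EGFP-negative cells (log2 0.44, interval -0.44 to 1.33). Slc30a3, a vesicular zinc exporter, read 971 ± 132 in EGFP-high cells, against 838 ± 182 in EGFP-negative cells (log2 0.22, interval -0.22 to 0.66). Of the 19 tested metal carrier probe sets, Slc39a8 alone passed without the block, Slc39a6 and Slc31a1 joined it with the block, and the median log2 difference was 0.22.

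Slc6a6, the sodium- and chloride-coupled taurine carrier, rose in EGFP-high cells. It read 1808.5, 2234.6 and 2029.3 in EGFP-high cells, against 902.3, 1204.6 and 954.5 in EGFP-negative cells. The lowest EGFP-high value was above the highest EGFP-negative value, and replicate 2 was the highest in each group. The log2 difference was 0.98 (SE 0.17, adjusted p = 0.0103). Its dimmer probe set also had every EGFP-high value above every EGFP-negative value, 116 ± 16.2 in EGFP-high cells, against 76.5 ± 9.94 in EGFP-negative cells (log2 0.50, adjusted p = 0.194). The call of the main probe set was lost without EGFP-high replicate 2 (adjusted p = 0.0531) or replicate 3 (0.0557). It was also lost without both arrays of number 2 (0.0725) or of number 3 (0.175). In the same family the creatine carrier Slc6a8 (log2 -0.20, 95% interval -0.66 to 0.26) and the glycine carrier Slc6a9 (log2 -0.13, interval -0.45 to 0.20) did not pass. Of the 9 tested probe sets for neurotransmitters and osmolytes, 1 was higher and 0 lower.

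Among carriers of organic anions and cations 0 of 11 tested probe sets were higher and 2 lower. Slc22a4, a carrier of the antioxidant ergothioneine, read 41.8, 7 and 12.8 in EGFP-high cells, against 104.7, 142.6 and 128.7 in EGFP-negative cells. The EGFP-high values were all within the range of the bacterial and yeast control probe sets, and it was the only tested solute carrier probe set with all 3 EGFP-high arrays there and some EGFP-negative array above it. It passed the filter on low values only through its EGFP-negative arrays, and fell below it without EGFP-negative replicate 2 or without replicate 3, so a call of this probe set supports nothing about the group. The log2 difference was -1.95 (SE 0.32, adjusted p = 0.00849), a size that depends on the pseudocount and ran to -2.60 with one 25% as large and to -1.06 with one 4 times as large. Without both arrays of number 2 or of number 3 the adjusted p was 0.1 and 0.173. Slco3a1, an organic anion carrier, read 248.5, 152.2 and 114 in EGFP-high cells, against 355.5, 340.5 and 372.6 in EGFP-negative cells. The EGFP-negative arrays lay close together, and EGFP-high replicate 1 was nearest to them. The log2 difference was -1.04 (SE 0.24, adjusted p = 0.0443). The adjusted p was 0.00453 without EGFP-high replicate 1 and lay between 0.102 and 0.149 without any other single array. The call was also lost without the filter (0.0797), without the intensity trend of the variance (0.0567) and without both arrays of number 2 (0.281) or of number 3 (0.346). Slc10a3 and Slc22a18, also among the 3 brightest genes of the group, had log2 differences of 0.12 (95% interval -0.29 to 0.53) and 0.07 (interval -0.38 to 0.52). The lactate and pyruvate carrier Slc16a1 is named outside the rule because Emb, read below, serves monocarboxylate carriers. Its probe set read 2.3 to 15.1 in EGFP-high cells, against 1.5 to 4.4 in EGFP-negative cells, and was not tested.

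Most amino acid carriers did not pass the threshold. Slc1a4, a sodium-dependent exchanger of serine, alanine and cysteine, read 231.1, 260.6 and 278.1 in EGFP-high cells, against 361.4, 455.9 and 466.9 in EGFP-negative cells. The groups did not overlap (log2 -0.69, SE 0.17, adjusted p = 0.0481), and the call was lost without any 1 array other than EGFP-negative replicate 1 (adjusted p up to 0.155, without EGFP-negative replicate 3). It was also lost without the filter (0.0617), after quantile normalization (0.0522), without the intensity trend (0.0667) and without both arrays of any number (up to 0.328, for number 2), 11 of 17 alternatives in all. Slc38a2, a sodium-coupled carrier of neutral amino acids, read 1246.7, 2485.7 and 2677.4 in EGFP-high cells, against 1046.7, 1186.8 and 1994.5 in EGFP-negative cells. EGFP-high was above in each numbered pair while the groups overlapped (log2 0.57, SE 0.33, adjusted p = 0.436, and 0.0634 with the replicate block). Slc3a2, the heavy chain shared by several amino acid exchangers, read 1056 ± 43.7 in EGFP-high cells, against 942 ± 157 in EGFP-negative cells (log2 0.17, 95% interval -0.20 to 0.55). Its partner light chain Slc7a5, named after its values were seen, read 203 ± 30.1 in EGFP-high cells, against 219 ± 40.9 in EGFP-negative cells (log2 -0.09, interval -0.51 to 0.33). Over the 11 tested probe sets for amino acids and peptides the median was 0.17, with 0 higher and 1 lower.

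**Figure D2:**
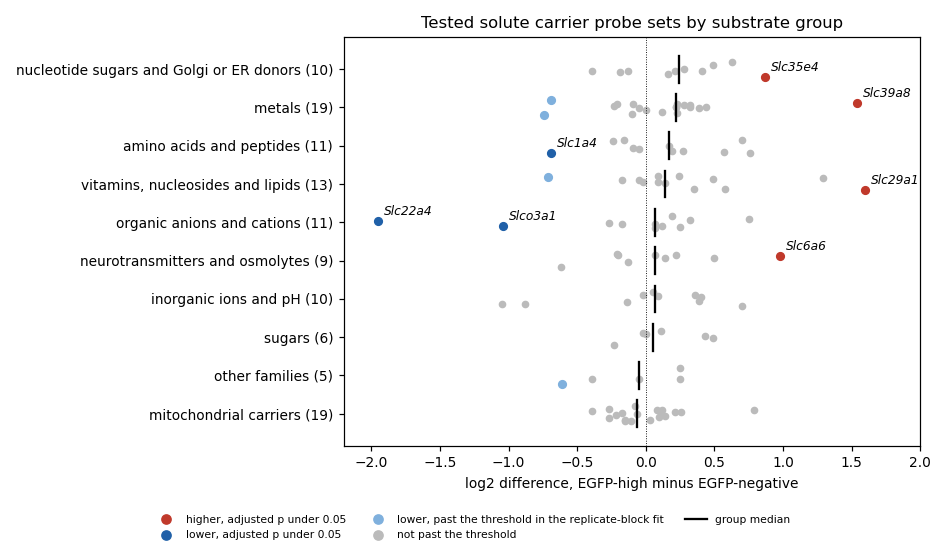
Log2 difference, EGFP-high minus EGFP-negative, of each of the 113 tested probe sets (points) by substrate group, with the number tested in brackets and a bar at the group median. Medians run from -0.06 for mitochondrial carriers to 0.25 for nucleotide sugar carriers, and the 7 named points past the threshold lie in 6 groups with at most 2 each.

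In the nucleotide sugar families, whose members feed glycosylation in the Golgi and endoplasmic reticulum, 1 of 10 tested probe sets was higher and 0 lower, with a median of 0.25. Slc35e4, an orphan member, read 208.8, 262 and 270.9 in EGFP-high cells, against 121.8, 149.6 and 108.6 in EGFP-negative cells. The groups did not overlap (log2 0.87, SE 0.18, adjusted p = 0.0249). The call was lost without EGFP-high replicate 2 or 3 or EGFP-negative replicate 1 or 3, with an adjusted p of up to 0.116, without EGFP-high replicate 3. It was also lost without both arrays of number 2 (0.13) or of number 3 (0.303), 6 of 17 alternatives in all. Slc35b1 (log2 -0.13, 95% interval -0.48 to 0.22) and Slc35b2, the carrier of the sulphate donor (log2 0.16, interval -0.25 to 0.57), did not pass.

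No mitochondrial carrier family member passed in either fit, of 19 tested probe sets with a median of -0.06. Slc25a5, an ADP/ATP carrier, read 716.5, 637.3 and 691.4 in EGFP-high cells, against 842.8, 849.1 and 778.8 in EGFP-negative cells. The EGFP-high values were all below, by a log2 difference of -0.27 (SE 0.14, 95% interval -0.59 to 0.05, adjusted p = 0.40), and its probes may also pick up related transcripts, as its name marks. Slc25a17, a carrier of the peroxisome in this family, read 538 ± 80.5 in EGFP-high cells, against 713 ± 121 in EGFP-negative cells (log2 -0.39, interval -0.80 to 0.02). The other ADP/ATP carrier Slc25a4 had a log2 difference of -0.17 (interval -0.62 to 0.28).

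No carrier of inorganic ions and no sugar carrier passed in either fit, of 10 and 6 tested probe sets. Slc12a2, the sodium, potassium and chloride cotransporter that loads cells with chloride, read 660.6, 215.9 and 155.9 in EGFP-high cells, against 648.5, 510 and 683.4 in EGFP-negative cells. EGFP-high replicate 1 read like the EGFP-negative arrays and the other 2 EGFP-high arrays were below all of them. The log2 difference was -1.05 (SE 0.43, adjusted p = 0.247). Leaving out EGFP-high replicate 1 alone made it -1.63 (adjusted p = 0.00328), while leaving out replicate 3 of that group made it -0.65 (0.556). Without both arrays of number 1 it was -1.59 (0.00715), and without both of number 3 it was -0.57 (0.701). The potassium and chloride cotransporter Slc12a4 (log2 -0.02, 95% interval -0.69 to 0.65) and the Golgi proton exchanger Slc9a8 (log2 0.40, interval -0.01 to 0.82) did not pass. Among sugar carriers Slc50a1 read 274.1, 342.3 and 336.3 in EGFP-high cells, against 231.2, 226.6 and 233.6 in EGFP-negative cells. The groups did not overlap (log2 0.43, SE 0.16, adjusted p = 0.189). The fructose carrier Slc2a5 (log2 -0.02, interval -0.59 to 0.55) and Slc2a8 (log2 0.11, interval -0.28 to 0.49) overlapped.

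The 5 probe sets outside these families included 2 scaffold proteins that bind transporters rather than transport. Slc9a3r1 read 133 ± 7.59 in EGFP-high cells, against 180 ± 16.7 in EGFP-negative cells, without overlap (log2 -0.39, adjusted p = 0.240), and Slc9a3r2 read 98.7 ± 5.94 in EGFP-high cells, against 79.8 ± 7.54 in EGFP-negative cells, also without overlap (log2 0.25, adjusted p = 0.533). Slc66a2 read 322.6, 381.2 and 288.9 in EGFP-high cells, against 474.5, 536.5 and 529.5 in EGFP-negative cells. Every EGFP-high value was below every EGFP-negative value (log2 -0.61, SE 0.16, adjusted p = 0.0689, and 0.0271 with the replicate block).

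The 73 probe sets that were not tested had values between 0.5 and 89.3. For 43 of them no array rose above the highest control probe set on that array, and for 30 at least 1 array did. With no filter on low values 0 of the 73 passed. They include the amino acid carriers Slc7a11 and Slc1a5, named after their values were seen, at 13.6 to 21.2 and 18.5 to 39.3 in EGFP-high cells and at 13.9 to 21.1 and 29.4 to 34.1 in EGFP-negative cells. A dim probe set does not show that the gene was silent.

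Of the 15 genes with a pair of tested probe sets, 6 had log2 differences of opposite sign. Slc29a1 and Slc6a6 were the genes with a called probe set, and in each the partner probe set did not pass. Slc35e1, an orphan of the nucleotide sugar families named after its values were seen, had log2 differences of -0.39 (SE 0.21) and 0.63 (SE 0.36), neither past the threshold.

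**Figure D3:**
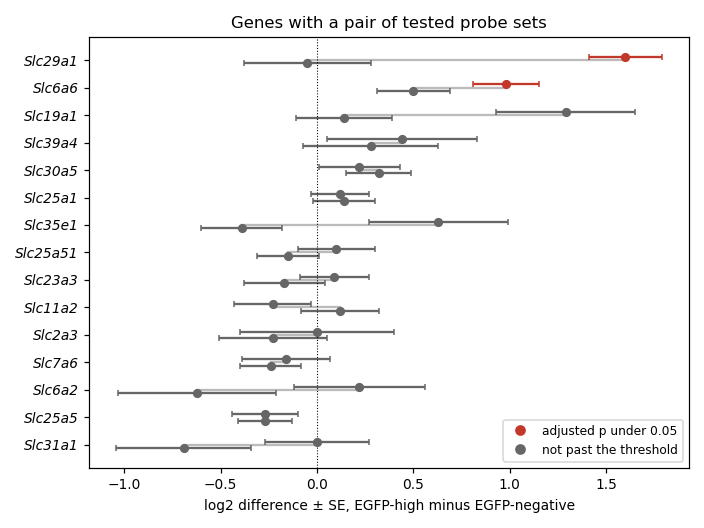
Log2 difference ± SE, EGFP-high minus EGFP-negative, for the 30 probe sets of the 15 genes with a pair of tested probe sets, joined by gene. The red points are the called probe sets of Slc29a1 at 1.60 and Slc6a6 at 0.98, whose partners lie at -0.05 and 0.50.

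Genes that work beside the carriers were read from lists chosen from general knowledge. Each gene was read from its brightest probe set, and 5.33% of all genes so read passed. Among 17 tested transport partners Emb and Sgk1 rose and Atp1b1 fell, and the median log2 difference was -0.05. Emb, an ancillary protein that brings monocarboxylate carriers to the membrane, read 483.5, 597.4 and 781.8 in EGFP-high cells, against 215, 196.1 and 171.7 in EGFP-negative cells (log2 1.56, SE 0.20, adjusted p = 0.00236). Sgk1, a kinase that raises the surface level of several carriers and channels, read 1340 ± 286 in EGFP-high cells, against 658 ± 161 in EGFP-negative cells (log2 1.02, adjusted p = 0.0358). Atp1b1, a subunit of the sodium pump that powers sodium-coupled carriers, read 105.9, 72.3 and 62.6 in EGFP-high cells, against 180.7, 216.7 and 177.3 in EGFP-negative cells (log2 -1.10, SE 0.20, adjusted p = 0.0142). The probes of this Atp1b1 probe set may also pick up related transcripts, as its name marks. With the block Atp1b3, another subunit of the pump, was also lower (log2 -0.71, adjusted p = 0.00939, and 0.147 without the block). Without single arrays the call of Sgk1 was lost for 4 of 6 (adjusted p up to 0.148) and that of Atp1b1 for 3 of 6 (up to 0.0667), both highest without EGFP-high replicate 3.

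Of 16 tested genes of the amino acid response 1 was higher and 1 lower, and of 14 genes of metal handling 0 were higher and 1 lower. Psat1, an enzyme of serine synthesis, read 332.1, 197.8 and 209.3 in EGFP-high cells, against 898, 677.4 and 601.4 in EGFP-negative cells. The groups were well apart (log2 -1.50, SE 0.23, adjusted p = 0.00606). Gclm, a subunit of the enzyme that makes the glutathione precursor, read 140 ± 28.1 in EGFP-high cells, against 65.9 ± 9.41 in EGFP-negative cells (log2 0.90, adjusted p = 0.0358), a call lost without any 1 of 5 arrays (up to 0.153, without EGFP-high replicate 3). Mt2, a metallothionein that binds zinc and copper, read 3158, 3227.1 and 3937.1 in EGFP-high cells, against 8012.7, 7919.2 and 11510.9 in EGFP-negative cells. Every EGFP-high value was far below (log2 -1.39, SE 0.19, adjusted p = 0.00343). Mt1 had a log2 difference of -0.73, with an adjusted p of 0.165 and of 0.0171 with the block, and Ddit4, a stress-induced inhibitor of growth signalling, one of -1.01, with an adjusted p of 0.0892 and of 0.0136 with the block. In the other large transporter superfamily, the ABC transporters, 0 of 17 tested genes passed and the median was -0.17, while with the block Abca1 was higher (log2 0.67, adjusted p = 0.0483) and Abcc1 (log2 -0.97, adjusted p = 0.0131) and Abcd3 (log2 -0.49, adjusted p = 0.046) lower. Of 6 aquaporins 1 was bright enough to be tested and it did not pass.

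**Figure D4:**
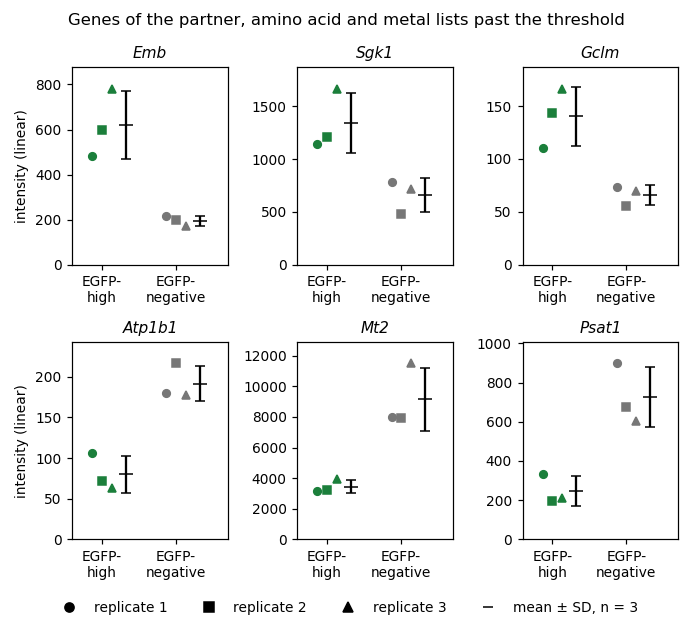
Intensity on a linear scale, starting at 0, for the 6 genes of the partner, amino acid response and metal handling lists past the threshold, with 1 point per array and the mean ± SD of 3 arrays. Emb, Sgk1 and Gclm are higher and Atp1b1, Mt2 and Psat1 lower in EGFP-high cells, and in no panel do the groups overlap.

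Markers of other cells that the gates could hold were read beside these results. Of 4 tested melanocyte markers 1 was higher, Mitf (log2 1.13, lost without 2 of the 6 arrays, adjusted p up to 0.0596), and the sum of the 7 on the array was 613.8 to 711 in EGFP-high and 452.8 to 498 in EGFP-negative samples. Of 3 tested sebocyte markers 1 was higher, Mgst1 (log2 1.92), while Scd1 was below in all 3 numbered pairs (log2 -0.73, adjusted p = 0.244, and 0.0176 with the replicate block), with sums for the 4 on the array of 1086 to 1482 in EGFP-high and 1199 to 1612 in EGFP-negative samples. Of 5 tested fibroblast markers 1 was lower, Thy1 (log2 -1.51, lost without 4 of the 6 arrays, adjusted p up to 0.119), with sums of 1097 to 1359 in EGFP-high and 1215 to 1403 in EGFP-negative samples for 7 markers, and Col3a1 was at the control level on every array. The 1 tested adipocyte marker, Lep, was higher (log2 0.79, lost without 4 of the 6 arrays, adjusted p up to 0.153), with sums of 482.7 to 646.9 in EGFP-high and 296.4 to 376.8 in EGFP-negative samples for 3 markers, and Fabp4 was at the control level. Of the T cell, Langerhans cell and macrophage, endothelial, erythrocyte and Schwann cell markers none passed, but few were bright enough to be tested. The tested number was 1 of 7 for T cells, 3 of 9 for Langerhans cells and macrophages and 1 of 6 for endothelial cells. It was 1 of 3 for erythrocytes and 2 of 3 for Schwann cells. Among the untested T cell markers, Cd3e, Cd3d and Cd28 had every EGFP-high value above every EGFP-negative value, and the others overlapped. Of all tested probe sets 11.6% had EGFP-high wholly above, and the share among untested ones was not taken. On every EGFP-negative array these markers were at or below the highest control probe set. The median of the control probe sets was itself 16.5, 14.4 and 11.2 on the EGFP-high arrays, against 9.6, 10.8 and 10.9 on the EGFP-negative arrays. The T cell markers Cd3d, Cd2 and Cd8a, the macrophage markers Lyz2, Adgre1 and Fcer1g and the endothelial markers Cdh5, Tek and Tie1 were at the control level on every array. The summed T cell markers were 293.4 to 441.5 in EGFP-high and 101.9 to 237.6 in EGFP-negative samples, mostly from probe sets too dim to be tested. This sum includes a Cd3e value of 135.4 in EGFP-high replicate 3, against 27.7 and 28.7 in replicates 1 and 2. The 1 tested T cell marker, Cd4, had overlapping groups (log2 0.47, adjusted p = 0.626). The part of these cells in the transporter differences was not tested.

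**Figure D5:**
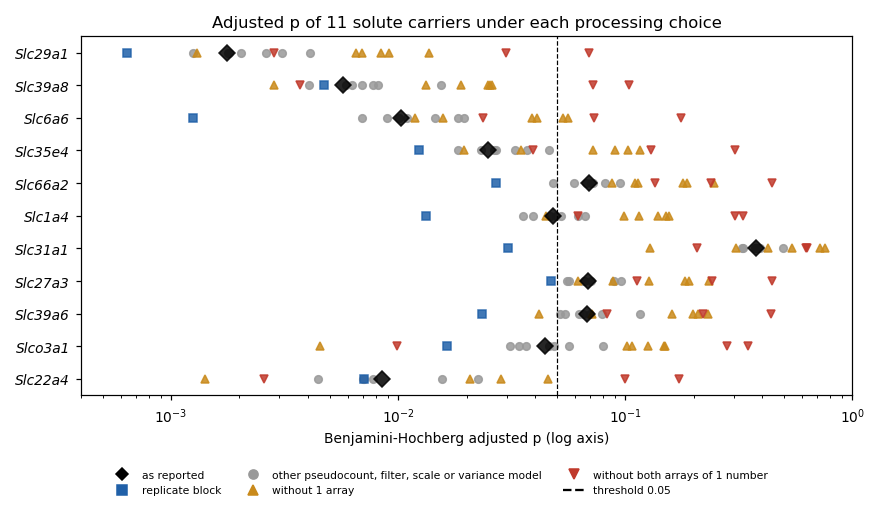
Adjusted p (log axis) of the 7 probe sets past the threshold and the 4 past it with the replicate block, under each processing choice, with a dashed line at 0.05. The reported values of Slc29a1, Slc39a8 and Slc22a4 lie furthest below the line. Slc22a4 was bright enough to be tested only through its EGFP-negative values, so its place here is a description. The reported values of Slc1a4 and Slco3a1, at 0.0481 and 0.0443, lie just below the line.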

How the data were processed

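Total RNA of 6 samples was measured on Affymetrix-type arrays. The table deposited by the authors holds linear intensity values, 1 for each of 12488 rows on each array. Software and background method were not given in the sources used here. A mean after trimming 2% at each end of 150.1 in every column shows that the arrays were scaled before deposit, and that scale was kept. No read depth applies, and the number of arrays limits the precision.

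The 66 control rows were left out. Of the other 12422 probe sets 10833 had 1 gene symbol, 396 several and 1193 none in the platform annotation. RefSeq (GRCm38.p6) changed 0 symbols of the 10817 it matched, the members among them. The log2(intensity + 19.3) values, 19.3 being the 25th percentile of deposited intensities, were fitted in limma 3.58.1 (R 4.3.3; lmFit and eBayes with an intensity trend; 4 residual and 4.96 prior degrees of freedom), two-sided, with Benjamini-Hochberg adjustment over 7453 probe sets and the threshold 0.05. Intervals are 95% moderated t intervals. The fit was tested on simulated data. A list gene was read from its brightest probe set. No set test was run.

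Samples take their group and number from their titles. Same-numbered arrays deviated together from their group means, with correlations over probe sets of 0.336, 0.368 and 0.305, all above 0.1, against -0.0629 or below for other pairs. The numbers were therefore treated as pairs in the fit with the replicate block and wherever numbered pairs are described. The labels do not state such pairing. Deviations cancel within a group, so the negative values are not separate support. The reported fit has no block. The blocked value is printed where it changes a call.

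The members and lists were chosen with earlier results of these data known. Named are all probe sets past the threshold in either fit, the 3 brightest tested genes of each substrate group, the second probe sets of called genes and called list genes. Genes named outside this rule are marked as such. Brightness differs between probe sets for technical reasons and orders no transcripts.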

Additional observations from a re-analysis of the deposited data

How the results depend on the processing

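The 4 probe sets higher in EGFP-high cells stayed 4 under both other pseudocounts, without the filter, with a filter at the 60th percentile, after quantile normalization, with array medians set equal, without the intensity trend and with the replicate block. Leaving out 1 array, or both arrays of 1 number, gave 0 to 5 higher and 0 to 4 lower, with 2 higher without EGFP-high replicate 2 or replicate 3, 1 higher without both arrays of number 2 and 0 without both of number 3. The 3 lower stayed 3 under both other pseudocounts. They became 1 without the filter, where more probe sets were tested, 1 without the intensity trend and 7 with the replicate block. They came to 2 with the filter at the 60th percentile, 2 after quantile normalization and 4 with array medians set equal. Without EGFP-high replicate 2 or replicate 3 there was 1 lower. There were 0 lower without EGFP-negative replicate 2 or replicate 3, or without both arrays of number 2 or of number 3. Without both arrays of number 1 there were 5 higher and 3 lower. The block changed no other call among the members. Slc22a4 fell below the filter, and was not tested, without EGFP-negative replicate 2, without EGFP-negative replicate 3 and with the stricter filter.

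For the 7 probe sets past the threshold, 81 of 116 values under these alternatives kept the call, 35 lost it and 0 changed sign. Slc22a4, with 12 of its 14 values kept, is in this count as a description only. For the other 30 named probe sets 477 of 506 stayed on the same side with the same sign, 8 passed and 21 changed sign with no call, all of these with arrays left out. The ranges of those log2 differences were -0.28 to 0.26 for Slc12a4, -0.03 to 0.38 for Slc30a3, -0.10 to 0.61 for Slc39a4, -0.38 to 0.13 for Slc39a1, -0.02 to 0.28 for Slc10a3, -0.10 to 0.24 for Slc22a18, -0.02 to 0.17 for Slc2a8, -0.29 to 0.29 for Slc2a5 and -0.48 to 0.26 for the second probe set of Slc29a1. Of 340 counts by substrate group, 297 stayed within 1.5 times, 34 were lower and 9 higher. Where no construction of the alternative shows it, the cause was not tested. With 3 arrays a group, an uncalled difference is not shown to be absent.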
